A study of Homo sapiens with 6 samples.

Results

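The genes described are VEGFA and 9 further genes of the hypoxia response: HIF1A, EPAS1, EGLN1, EGLN3, BNIP3, NDRG1, ADM, KDM3A and P4HA1. They were chosen by gene name from the table of PRO-seq counts, with the condition that at least 1 library held 10 counts or more. All 10 met it, out of 20333 gene intervals in the table. All 10 also passed the filter on low counts, which left 19902 genes for testing. The names were picked with results of these data already known, so the choice is no independent evidence of a direction.

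PRO-seq labels the RNA that engaged polymerases are making at the moment of harvest, so a gene's reads report its transcription and not its stock of mature RNA. T47D is an estrogen receptor-positive, HER2-negative luminal breast cancer line. The cells grew in complete medium with its growth factors and received DMSO, the solvent, GDC0068 at 500 nM, which blocks the catalytic site of the AKT kinases, or INY-05-040 at 100 nM, which removes the AKT proteins and carries the label Degrader. Treatment lasted 5 h in all 3 arms, and the doses were picked by the submitters for a like loss of downstream signalling. Each arm had 2 libraries, which came from 2 independent experiments. The labels name no arm in low oxygen, so every value refers to the usual culture conditions of 1 cell line, and no positive control for hypoxia was measured.

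Cells sense oxygen through hydroxylases that mark the alpha subunits of the hypoxia-inducible factors (HIF) for destruction by the VHL ubiquitin ligase. When oxygen falls, the subunits persist, pair with ARNT and bind a short DNA element beside genes for blood vessel growth, glycolysis, collagen maturation and mitochondrial clearance. AKT and mTORC1 are known to raise HIF-1 alpha synthesis, and growth factor signals can drive VEGFA without low oxygen. The HIF subunits are controlled mainly as proteins, which PRO-seq does not measure.

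The libraries held 25371819 to 32192576 counts, with TMM scaling factors from 0.997 to 1.003. All values are given as counts-per-million (CPM) of the scaled library, with SD over the 2 libraries of an arm (n = 2 throughout), and SDs or intervals cover only the spread seen here. Of 10 luminal markers fixed for the check of the cell type, all 10 were listed in the table, with ESR1, GATA3 and KRT19 among them, and their summed level lay between 5489 and 5860 CPM in every library. Within that sum PGR stood at 791 and 821 CPM in DMSO, 882 and 989 CPM under GDC0068, and 984 and 1050.4 CPM under Degrader. ESR1 stood at 1192 and 1209 CPM in DMSO, 1014 and 1142 CPM under GDC0068, and 1062 and 1129 CPM under Degrader. Neither drug overlapped DMSO for these 2 markers. FOXA1 was likewise higher under both drugs (285 to 303 CPM) than in DMSO (275 and 264 CPM). CDH1 (324 to 345 against 362 and 346 CPM) and TFF1 (4.08 to 5.09 against 5.79 and 5.84 CPM) were lower under both. Each other luminal marker overlapped DMSO under at least 1 drug. The part of these markers in any result was not tested. None of 16 markers of basal, fibroblast and endothelial cells was listed. A gene that was not listed has no value here, which does not show that it was silent. Of 6 leukocyte markers 1 was listed, CD68, which is a lysosomal protein and not restricted to leukocytes. Its level was 77.2 to 83.6 CPM in DMSO, 62.6 to 67.6 CPM under GDC0068 and 55.1 to 64.4 CPM under Degrader, and its part in any result was not tested.

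VEGFA fell under both drugs, and it had the largest change of the 10 genes against DMSO in either arm. It encodes vascular endothelial growth factor A, the main signal for new blood vessels and a classical HIF target. Its interval (ENSG00000112715) lies on chromosome 6 from 43770775 to 43786487 on the plus strand. Transcription stood at 71.9 and 68.0 CPM in the DMSO libraries, 49.4 and 45.4 CPM under GDC0068, and 42.0 and 41.0 CPM under Degrader. Both DMSO libraries lay above all 4 drug-treated ones, and both Degrader libraries lay below both GDC0068 libraries.

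Against DMSO the log2 fold change of VEGFA was -0.75 under Degrader (SE 0.0614, adjusted p = 8.29e-05, edgeR) and -0.56 under GDC0068 (SE 0.0610, adjusted p = 0.00182, edgeR). The fall was present in each experiment, at -0.78 and -0.73 under Degrader and at -0.54 and -0.58 under GDC0068 on the log2 scale. Among the 13897 genes that averaged 10 CPM or more, 19 had a lower log2 fold change than VEGFA under Degrader and 20 under GDC0068. Over all 19902 genes tested, which include those with fewer counts, it ranked 146 from the lowest under Degrader and 225 under GDC0068. VEGFA kept its call in both contrasts under each of the 15 alternative settings tried, with log2 fold changes from -0.79 to -0.72 under Degrader and from -0.63 to -0.51 under GDC0068. Both contrasts use the same 2 DMSO libraries. Set directly against GDC0068, Degrader gave a log2 difference of -0.19 (95% interval -0.33 to -0.05), which was not called (adjusted p = 0.212, edgeR). With the replicate number as a block the same difference was called (adjusted p = 0.0184, edgeR).

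A short transcript, AL136131.3, runs antisense across the start of VEGFA (43770429 to 43771461) and covers 4.37% of the VEGFA interval. It stood at 5.91 and 4.96 CPM in DMSO, 4.29 and 4.27 CPM under GDC0068, and 2.65 and 2.47 CPM under Degrader. It fell under Degrader by 1.09 on the log2 scale (adjusted p = 0.00174, edgeR), whereas the GDC0068 change of -0.35 was not called (adjusted p = 0.237, edgeR). The drugs' values for this transcript did not pass the test against each other (log2 difference -0.74, adjusted p = 0.1000, edgeR). Whether strand was used in the counting is not given in the sources used here, so reads of the pair in the shared stretch cannot be told apart. At 4.09 CPM on average the antisense interval holds far fewer reads than VEGFA, at 52.9 CPM.

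**Figure D1:**
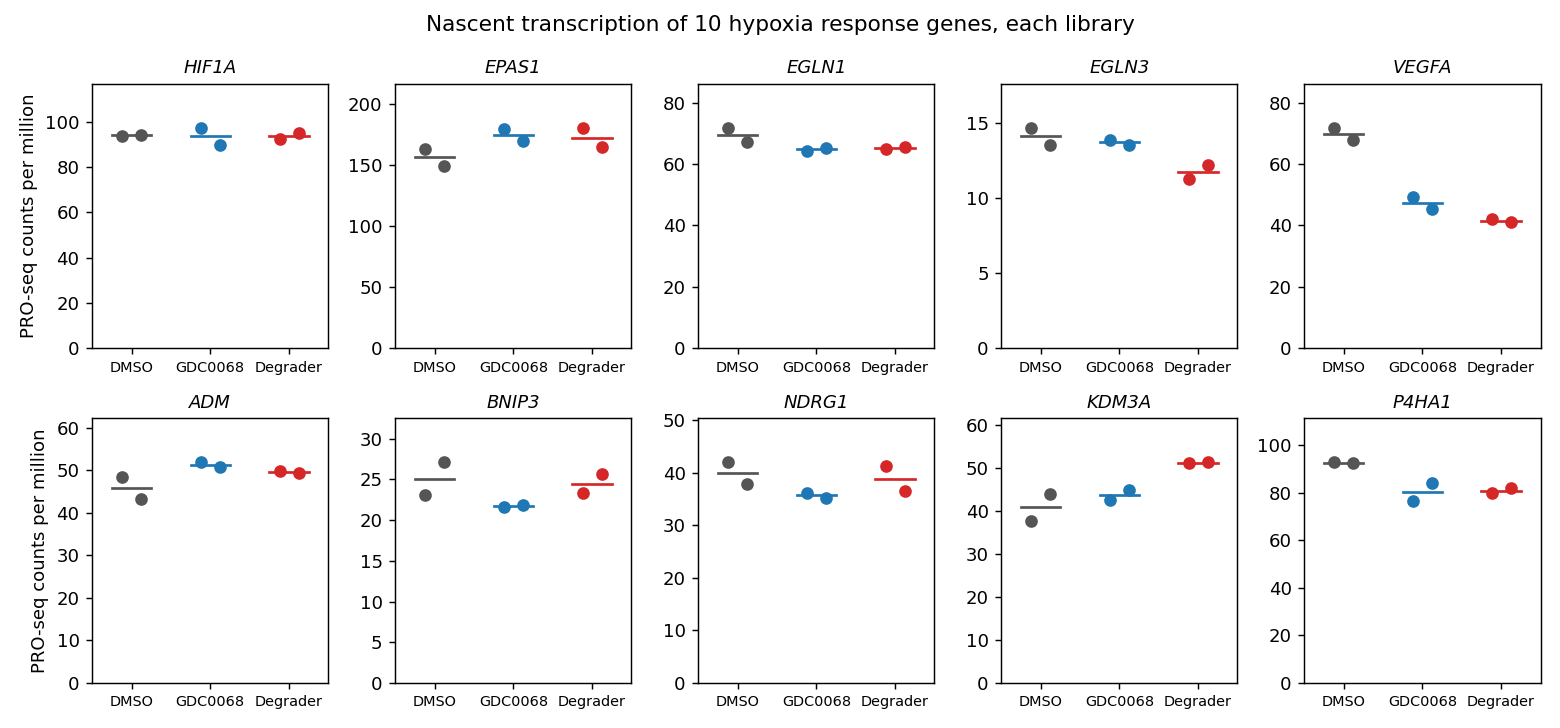
PRO-seq CPM (vertical axis, from 0) of the 10 genes in each library, with a point per library and a line at the arm mean; grey is DMSO, blue is GDC0068 and red is Degrader. VEGFA steps down from 71.9 and 68.0 CPM in DMSO to 42.0 and 41.0 CPM under Degrader, while HIF1A lies between 90.0 and 97.4 CPM in all 6 libraries.

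Across the 10 genes, edgeR called 3 under Degrader, where 15.3% of all genes tested were called. VEGFA and P4HA1 were lower (7.88% of all genes were) and KDM3A was higher (7.39% of all genes were). Under GDC0068 it called 1, VEGFA, which was lower, where 3.58% of all genes were called and 1.88% were called lower. Between the drugs it called 0 of the 10 against 0.266% of all genes, and 3 of the 10 had an unadjusted p under 0.05. That fit does not use the pairing by experiment, and with the replicate block VEGFA and KDM3A were called between the drugs. The median log2 fold change of the 10 was -0.035 under Degrader and -0.074 under GDC0068, and that of all genes tested was -0.0014 and 0.0099. The genes moved in both directions: the values ran from -0.75 to 0.33 under Degrader and from -0.56 to 0.16 under GDC0068.

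The 2 experiments left a shared trace in the libraries, and fitting the replicate number as a block changed several calls. With it, edgeR called 5 of the 10 for Degrader (30.7% of all genes), 4 for GDC0068 (17.8% of all genes) and 2 between the drugs (10.4% of all genes). DESeq2, with no block, called 2 of the 10 for Degrader (13.2% of the genes it gave an adjusted p). It called 1 for GDC0068 (3.79%) and 0 between the drugs (0.927%). The genes with an adjusted p numbered 17173, 15991 and 15203, so these shares have a smaller base than those of edgeR. For Degrader, edgeR called 1 of the 10 without DMSO replicate 1 (4.68% of all genes), without Degrader replicate 1 (8.89%) or without Degrader replicate 2 (4.67%), and 2 without DMSO replicate 2 (9.16%).

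The genes for the oxygen-labile subunits were not called against DMSO in the fit without the block, and HIF1A had the smallest changes of the 10. HIF1A (ENSG00000100644, chromosome 14, 61695520 to 61748258, plus strand) encodes HIF-1 alpha. It stood at 93.7 and 94.3 CPM in DMSO, 97.4 and 90.0 CPM under GDC0068, and 92.5 and 95.2 CPM under Degrader. The 3 arms overlap. The log2 fold change was -0.0023 under Degrader (95% interval -0.12 to 0.11) and -0.0057 under GDC0068 (95% interval -0.12 to 0.11) (adjusted p = 0.984 and 0.970, edgeR). The sign of both values turned with upper-quartile scaling, at 0.0012 and 0.0064. The opposite-strand transcript HIF1A-AS3 covers 77.2% of the HIF1A interval, and AL137129.1 on the same strand covers 26.2%, so reads in the shared stretches cannot be told apart. On average HIF1A-AS3 held 53.4 CPM and AL137129.1 held 106.2 CPM, against 93.9 CPM for HIF1A. Neither overlapping transcript was called against DMSO in either arm (adjusted p from 0.169 to 0.892, edgeR).

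EPAS1 (ENSG00000116016, chromosome 2, 46297766 to 46386697, plus strand) encodes HIF-2 alpha, the other main alpha subunit. It had 163 and 149 CPM in DMSO, 179 and 169.7 CPM under GDC0068, and 180.3 and 164 CPM under Degrader. Every drug-treated library lay above both DMSO libraries, though by little over the higher one. Its log2 fold change was 0.14 under Degrader (SE 0.0621, adjusted p = 0.149, edgeR) and 0.16 under GDC0068 (SE 0.0621, adjusted p = 0.178, edgeR), neither of them called. In each experiment the drug-treated libraries were higher by 0.13 to 0.19 on the log2 scale, and with the replicate block EPAS1 was called in both contrasts (adjusted p = 0.00219 and 0.00153, edgeR). The direct contrast of the drugs gave -0.017 (95% interval -0.15 to 0.12, adjusted p = 0.929, edgeR).

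The 2 prolyl hydroxylase genes gave no call without the block. EGLN1 (ENSG00000135766, chromosome 1, 231363756 to 231422238, minus strand) encodes PHD2, the main oxygen sensor that marks HIF-1 alpha. Its libraries read 71.8 and 67.3 CPM in DMSO, 64.3 and 65.2 CPM under GDC0068, and 64.9 and 65.6 CPM under Degrader. Both DMSO libraries were above the other 4, but the log2 fold changes of -0.093 under Degrader and -0.10 under GDC0068 were not called (adjusted p = 0.278 and 0.314, edgeR).

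EGLN3 (ENSG00000129521, chromosome 14, 33924227 to 33951076, minus strand) encodes PHD3, a sensor that is itself induced by HIF. It was the least transcribed of the 10, with 14.7 and 13.6 CPM in DMSO, 13.9 and 13.5 CPM under GDC0068, and 11.2 and 12.2 CPM under Degrader. The Degrader libraries lay below the other 4, and GDC0068 overlapped DMSO. Under Degrader the log2 fold change was -0.27 (SE 0.100, adjusted p = 0.0928, edgeR), which was called with the replicate block (adjusted p = 0.0337, edgeR). Under GDC0068 it was -0.045 (adjusted p = 0.847, edgeR). The difference between the drugs was -0.22 (95% interval -0.45 to -0.0038, adjusted p = 0.346, edgeR).

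Among the HIF target genes, ADM did not follow VEGFA, although both encode secreted factors that act on blood vessels. ADM (ENSG00000148926, chromosome 11, 10305073 to 10307397, plus strand) encodes adrenomedullin, a peptide that widens vessels. It stood at 48.5 and 43.3 CPM in DMSO, 51.9 and 50.7 CPM under GDC0068, and 49.8 and 49.4 CPM under Degrader. All 4 drug-treated libraries exceeded the DMSO libraries. The log2 fold change of 0.16 under GDC0068 was called with the replicate block (adjusted p = 0.0352, edgeR) and not without it (adjusted p = 0.195, edgeR), and that of 0.11 under Degrader was called in neither fit (adjusted p = 0.282, edgeR without the block and 0.117 with it).

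KDM3A rose under Degrader. It encodes a histone demethylase that removes methyl groups from lysine 9 of histone H3 and is induced by HIF. Its interval (ENSG00000115548) lies on chromosome 2 from 86441391 to 86492716 on the plus strand. It read 37.7 and 43.9 CPM in DMSO, 42.4 and 44.8 CPM under GDC0068, and 51.0 and 51.2 CPM under Degrader. The Degrader libraries lay above the other 4, and GDC0068 overlapped DMSO. The log2 fold change under Degrader was 0.33 (SE 0.0739, adjusted p = 0.0127, edgeR), made up of 0.44 in the first experiment and 0.22 in the second. Without DMSO replicate 1 it was 0.22 and not called (adjusted p = 0.143, edgeR), and the call was also lost without Degrader replicate 1 or 2 (adjusted p = 0.0530 and 0.0857, edgeR). Under GDC0068 the change was 0.100 (adjusted p = 0.496, edgeR), and it was -0.012 without DMSO replicate 1. Degrader exceeded GDC0068 by 0.23 (95% interval 0.066 to 0.39), which was not called (adjusted p = 0.206, edgeR) except with the replicate block (adjusted p = 0.00942, edgeR).

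P4HA1 fell under Degrader by a small amount. It encodes the catalytic subunit of the collagen prolyl 4-hydroxylase, which stabilises the collagen triple helix. Its interval (ENSG00000122884) lies on chromosome 10 from 73007217 to 73096864 on the minus strand. Its libraries held 92.7 and 92.3 CPM in DMSO, 76.5 and 84.1 CPM under GDC0068, and 79.7 and 81.9 CPM under Degrader. All 4 drug-treated libraries lay below DMSO, and the drugs overlapped each other. The log2 fold change was -0.19 under Degrader (SE 0.0558, adjusted p = 0.0364, edgeR) and -0.20 under GDC0068 (SE 0.0559, adjusted p = 0.0688, edgeR), so nearly the same size fell on different sides of the threshold. The direct contrast gave 0.0080 (95% interval -0.11 to 0.13, adjusted p = 0.965, edgeR). With the replicate block P4HA1 was called in both arms (adjusted p = 6.22e-04 under Degrader and 9.96e-04 under GDC0068, edgeR). DESeq2 did not call it under Degrader (adjusted p = 0.0765), and edgeR did not when any 1 of the DMSO or Degrader libraries was left out (adjusted p from 0.111 to 0.167, edgeR).

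The 2 remaining target genes were not called in any contrast. BNIP3 (ENSG00000176171, chromosome 10, 131966455 to 131981923, minus strand) encodes a mitochondrial outer membrane protein that directs mitochondria to autophagy. It had 23.0 and 27.1 CPM in DMSO, 21.7 and 21.8 CPM under GDC0068, and 23.3 and 25.6 CPM under Degrader. GDC0068 lay below DMSO in both libraries, with a log2 fold change of -0.20 (adjusted p = 0.275, edgeR), and Degrader overlapped DMSO, with -0.031 (adjusted p = 0.864, edgeR).

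NDRG1 (ENSG00000104419, chromosome 8, 133237175 to 133297253, minus strand) encodes a stress-induced protein that limits metastasis in several tumour models. It stood at 41.9 and 37.9 CPM in DMSO, 36.1 and 35.2 CPM under GDC0068, and 41.2 and 36.5 CPM under Degrader. The first experiment was the higher one in all 3 arms, and Degrader overlapped DMSO. The log2 fold changes were -0.16 under GDC0068 (adjusted p = 0.269, edgeR) and -0.039 under Degrader (adjusted p = 0.780, edgeR). The drugs differed by 0.17 for BNIP3 (95% interval -0.043 to 0.38) and by 0.12 for NDRG1 (95% interval -0.046 to 0.29), and neither difference was called (adjusted p = 0.455 and 0.500, edgeR).

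**Figure D2:**
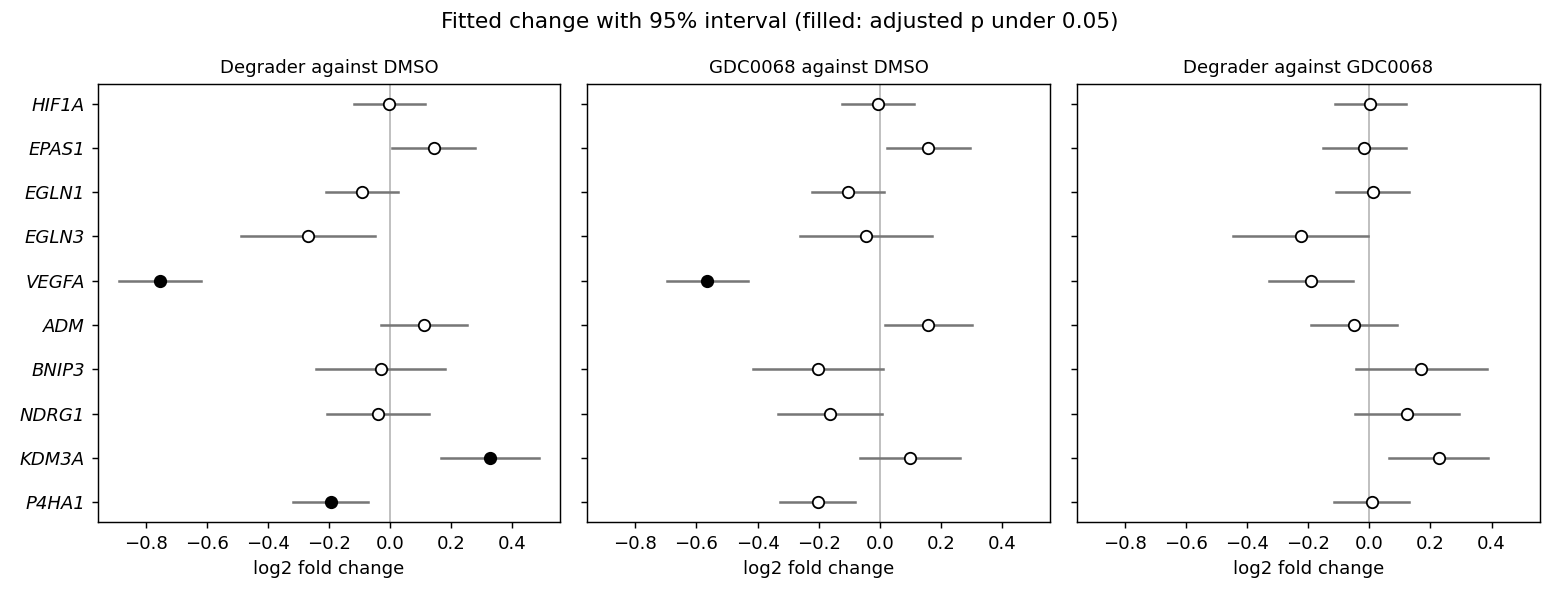
Log2 fold change (horizontal axis) of the 10 genes in 3 contrasts, with the 95% interval of the edgeR fit without the replicate block as a line. Filled points have an adjusted p under 0.05 over all genes tested in that fit. VEGFA stands apart at -0.75 and -0.56 against DMSO, KDM3A is the highest under Degrader at 0.33, and no point is filled between the drugs.

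Counted by library, 7 of the 10 genes had both Degrader libraries on one side of both DMSO libraries, against 58.6% of all genes tested. Under GDC0068 this was also 7, against 50.1% of all genes, and between the drugs it was 6, against 45.0%. These counts lie near the background and say little of the genes as a group.

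Read per length of the interval, the 10 genes differed widely in polymerase density. In DMSO the order ran from ADM, at 19.7 ± 1.58 CPM per kb, and VEGFA, at 4.45 ± 0.174 CPM per kb, through HIF1A (1.78 ± 0.00722), EPAS1 (1.75 ± 0.112), BNIP3 (1.62 ± 0.186), EGLN1 (1.19 ± 0.0543) and P4HA1 (1.03 ± 0.00277) to KDM3A (0.795 ± 0.0854), NDRG1 (0.664 ± 0.0478) and EGLN3 (0.526 ± 0.0297). HIF1A, EPAS1 and BNIP3 overlapped as neighbours in this order, and the other neighbours did not. Under Degrader the VEGFA density was 2.64 ± 0.0414 CPM per kb, which left it in the second place. The intervals themselves ran from 2.33 kb (ADM) to 89.6 kb (P4HA1). ADM, the first in the order, also has the shortest interval, and the part of interval length in the order was not tested. Which part of a gene was counted is not given in the sources used here. The order is therefore one of counts per length and no ranking of transcription rates.

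**Figure D3:**
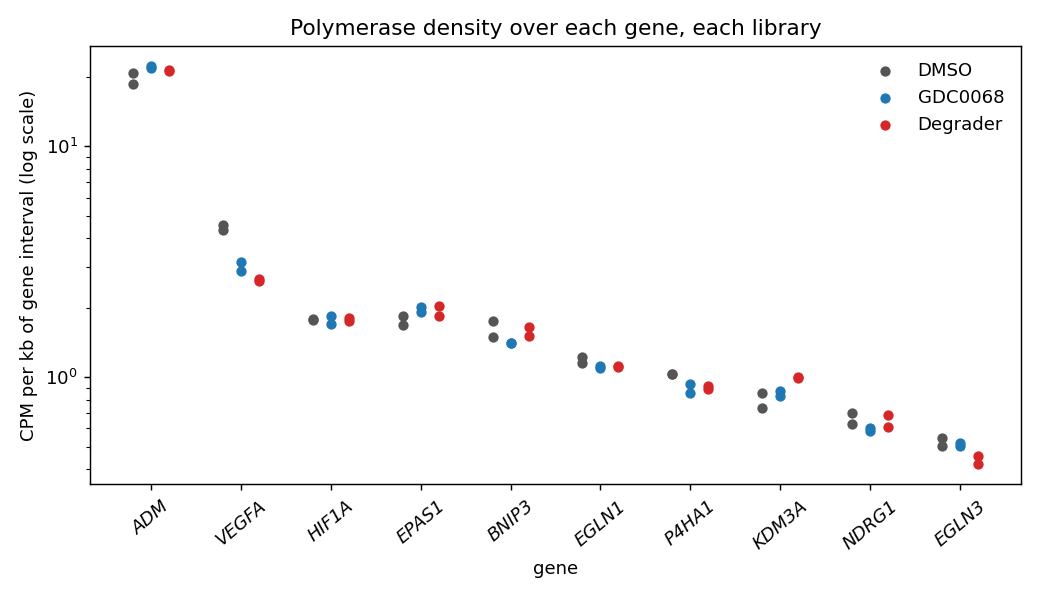
Polymerase density as CPM per kb of gene interval (vertical axis, log scale) for the 10 genes, ordered by their mean in DMSO, with a point per library in grey (DMSO), blue (GDC0068) and red (Degrader). ADM lies highest, at 19.7 CPM per kb in DMSO, VEGFA next at 4.45, and EGLN3 lowest at 0.526.

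The windows of 250 bases before the start site were read for the core of the hypoxia response element, ACGTG or GCGTG on either strand, with overlapping matches merged. Sequences came from RefSeq (GRCh38.p14), and 8 of the 10 genes matched an entry by symbol; VEGFA and NDRG1 did not. For the 8, the RefSeq start nearest to that of the deposited interval was used, at a distance of 0 to 49 bases except for EPAS1, where it was 359. A match was found in 7 of the 8 windows, where 43.2% of all 35116 windows held at least 1. The 8 windows held 62.4 to 81.6% G and C, and the shares over all windows were not matched for base content. EGLN3 held none. HIF1A, EPAS1, EGLN1, ADM, KDM3A and P4HA1 held 1 each, and BNIP3 held 5, a number reached by 0.629% of all windows. The window of BNIP3 is shown because it is the richest, and those of P4HA1 and KDM3A because these genes were called under Degrader in opposite directions; capitals mark the matches, and each runs 5′ to 3′ along the gene up to the base before the start.
P4HA1 (chr10:73096867-73097116, minus strand): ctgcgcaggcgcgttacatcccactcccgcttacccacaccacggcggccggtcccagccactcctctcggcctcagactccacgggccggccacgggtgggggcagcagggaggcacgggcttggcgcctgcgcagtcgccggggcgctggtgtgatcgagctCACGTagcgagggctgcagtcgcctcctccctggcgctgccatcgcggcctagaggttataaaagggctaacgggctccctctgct
KDM3A (chr2:86441121-86441370, plus strand): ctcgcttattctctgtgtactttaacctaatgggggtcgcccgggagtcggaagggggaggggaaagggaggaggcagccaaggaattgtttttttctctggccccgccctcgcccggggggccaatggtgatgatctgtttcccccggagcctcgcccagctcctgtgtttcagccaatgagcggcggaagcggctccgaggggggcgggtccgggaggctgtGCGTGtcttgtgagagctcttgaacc
BNIP3 (chr10:131981924-131982173, minus strand): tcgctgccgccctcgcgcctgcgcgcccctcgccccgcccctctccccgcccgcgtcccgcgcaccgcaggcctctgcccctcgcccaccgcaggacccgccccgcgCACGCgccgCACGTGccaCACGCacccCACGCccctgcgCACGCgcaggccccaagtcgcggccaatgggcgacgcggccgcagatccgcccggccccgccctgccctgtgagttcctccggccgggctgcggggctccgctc
P4HA1 has its match 86 bases before the start and KDM3A 26 bases before it, each counted to the match's first base. In BNIP3 the matches begin 143, 134, 125, 116 and 104 bases before the start, and the second of them, cacgtg, reads the same on both strands and is also the E-box. BNIP3, with 5 matches, was called in no contrast, and a match of these letters is no proof of a site in use.

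Of 20 regulators of HIF, written down from general knowledge but with earlier results of these data known, 17 were listed and tested. ARNT2, EP300 and HIF3A were not listed. Under Degrader edgeR called 3 of the 17 (17.6%, near the 15.3% of all genes), 1 higher and 2 lower, and the median log2 fold change was 0.039. Under GDC0068 it called 2 (11.8%, against 3.58% of all genes), 1 in each direction, with a median of 0.029. Between the drugs it called 0 (0.266% of all genes), with 3 at an unadjusted p under 0.05, and DESeq2 also called 0. The count under Degrader was 5 with robust estimation (16.1% of all genes) or with only the 4 libraries compared (16.2% of all genes). With the replicate block edgeR called 9 under Degrader (52.9%, against 30.7% of all genes), 6 higher and 3 lower. For GDC0068 the block gave 6 (35.3%, against 17.8% of all genes), 4 higher and 2 lower. Between the drugs it gave 3 (17.6%, against 10.4% of all genes), all lower.

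CITED2, a HIF-induced protein that competes with HIF for the coactivators CBP and p300, rose under both drugs. It went from 87.5 and 91.6 CPM in DMSO to 108.8 and 107.6 CPM under GDC0068 and to 105.7 and 113 CPM under Degrader. These are log2 fold changes of 0.27 for GDC0068 (adjusted p = 0.0207, edgeR) and 0.29 for Degrader (adjusted p = 0.00433, edgeR). RACK1, a ribosomal scaffold protein that also promotes oxygen-independent loss of HIF-1 alpha, fell by 0.34 on the log2 scale under Degrader (adjusted p = 0.00116, edgeR) and by 0.21 under GDC0068 (adjusted p = 0.0365, edgeR). HSP90AB1, a chaperone that HIF-1 alpha binds, fell by 0.30 under Degrader (adjusted p = 0.00281, edgeR); its GDC0068 value was -0.14 (adjusted p = 0.138, edgeR). Under GDC0068 the calls of CITED2 and RACK1 were lost when any 1 of the DMSO or GDC0068 libraries was left out (adjusted p up to 0.173 and 0.194, edgeR). That of RACK1 was also lost without Degrader replicate 2, by DESeq2 and with only the 4 libraries compared. Under Degrader the call of CITED2 was lost without DMSO replicate 1 or Degrader replicate 2 (adjusted p up to 0.0703, edgeR). In the fit without the block, VHL itself was not called under Degrader (log2 fold change -0.11, adjusted p = 0.316, edgeR), nor was ARNT (0.14, adjusted p = 0.0778, edgeR).

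Of the further HIF target genes, 14 were called lower and 2 higher under Degrader in the fit without the block. Of all genes tested, 7.88% were called lower and 7.39% higher there. The list held 53 genes, of which 45 were in the table and tested. edgeR called 16 under Degrader (35.6%, against 15.3% of all genes), 2 higher and 14 lower, with a median log2 fold change of -0.12. Under GDC0068 it called 6 (13.3%, against 3.58% of all genes), all lower (1.88% of all genes were), with a median of -0.034. Between the drugs it called 0, as did DESeq2, with 5 at an unadjusted p under 0.05 and a median of -0.046. With the replicate block edgeR called 26 under Degrader (57.8%, against 30.7% of all genes), 8 higher and 18 lower. Of all 19902 genes, 2996 were called higher and 3118 lower there. For GDC0068 the block gave 16 (35.6%, against 17.8% of all genes), 4 higher and 12 lower, where 1766 of all genes were higher and 1774 lower. Between the drugs it gave 4 (8.89%, against 10.4% of all genes), 1 higher and 3 lower. The Degrader count was 8 without DMSO replicate 1, 10 without Degrader replicate 1 and 6 without Degrader replicate 2, where 4.68%, 8.89% and 4.67% of all genes were called. The GDC0068 count was 1 without DMSO replicate 1 (0.185% of all genes) or GDC0068 replicate 2 (0.521%), and 3 without DMSO replicate 2 (0.666%). The list holds many enzymes of glycolysis, and it was written with earlier results of these data known.

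The 3 lower genes with the lowest adjusted p under Degrader were all enzymes of glycolysis. LDHA, which makes lactate from pyruvate, stood at 92.8 and 94.8 CPM in DMSO, 66.2 and 65.9 CPM under GDC0068, and 60.5 and 64.9 CPM under Degrader. Its log2 fold change was -0.58 under Degrader (adjusted p = 1.32e-04, edgeR) and -0.51 under GDC0068 (adjusted p = 0.00169, edgeR). GPI, the glucose phosphate isomerase, fell by 0.61 and 0.50 under Degrader and GDC0068 (adjusted p = 4.71e-04 and 0.00753, edgeR), and PKM, the pyruvate kinase gene, fell by 0.39 and 0.35 (adjusted p = 0.00118 and 0.0100, edgeR). Without DMSO replicate 1 or GDC0068 replicate 2, GPI and PKM were not called under GDC0068 (adjusted p up to 0.0644 and 0.0925, edgeR).

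Chosen after their values were seen, the rest of the 14 lower genes under Degrader were HK2, PGK1, ALDOA, SLC2A1 and PDK1 of glucose use, P4HA2 and PLOD1 of collagen modification, and AK4, ANGPTL4, TFRC and MIR210HG. HK2, the hexokinase that opens glycolysis, had the lowest value of the list at -0.73 (adjusted p = 0.00125, edgeR). P4HA2, the paralogue of P4HA1, changed by -0.43 (adjusted p = 0.0120, edgeR). PLOD1, a lysyl hydroxylase of collagen, changed by -0.30 (adjusted p = 0.00754, edgeR). PLOD1 was also called lower under GDC0068, with values from -0.33 to -0.21 over the 15 alternative settings. Its GDC0068 call was lost without DMSO replicate 1, DMSO replicate 2 or GDC0068 replicate 2. The 2 higher genes were MXI1, an antagonist of MYC, with 0.44 (adjusted p = 0.0193, edgeR), and KDM4B, a histone demethylase like KDM3A, with 0.26 (adjusted p = 0.0146, edgeR). HK2 and PGK1 kept their Degrader calls under all 15 alternative settings, while their GDC0068 calls were lost without any 1 of the DMSO or GDC0068 libraries (adjusted p up to 0.173 and 0.126, edgeR). The Degrader calls of ALDOA, ANGPTL4, SLC2A1 and TFRC were lost without any 1 of the DMSO or Degrader libraries (adjusted p up to 0.160, 0.300, 0.123 and 0.248, edgeR), and those of ALDOA and ANGPTL4 also by DESeq2. AK4 and MIR210HG were not called without DMSO replicate 1 or Degrader replicate 2 (up to 0.0603 and 0.0930), nor PDK1 without Degrader replicate 2 (adjusted p = 0.0546, edgeR). Without DMSO replicate 1 or Degrader replicate 2 the calls of P4HA2 and MXI1 were lost (adjusted p up to 0.118 and 0.169, edgeR). The Degrader call of PLOD1 was lost without Degrader replicate 1, and that of KDM4B without any 1 of the DMSO or Degrader libraries. Other classical targets were not called under Degrader in the fit without the block. Among them were CA12 (-0.036), DDIT4 (-0.14) and BNIP3L (0.25), with edgeR adjusted p of 0.785, 0.291 and 0.0807.

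**Figure D4:**
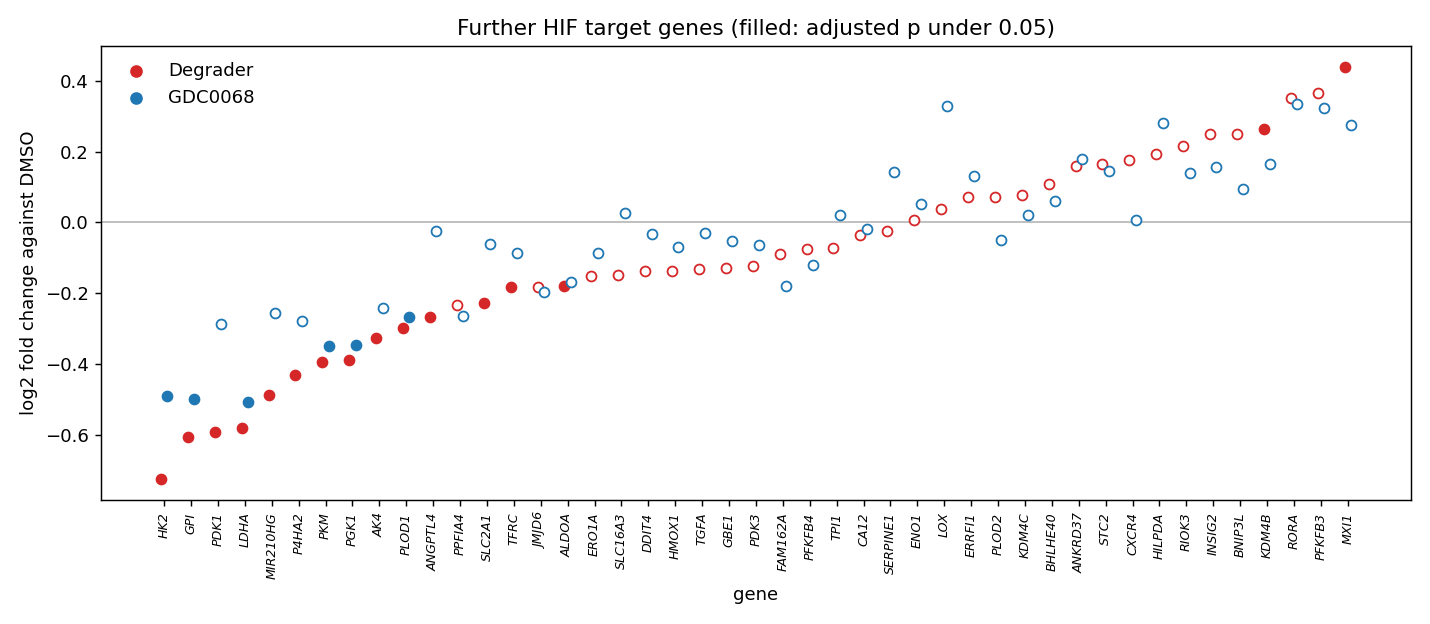
Log2 fold change against DMSO (vertical axis) of 45 further HIF target genes, ordered by the Degrader value; red is Degrader, blue is GDC0068, and filled points have an edgeR adjusted p under 0.05. The left end holds HK2 at -0.73 and the right end MXI1 at 0.44 under Degrader, and 16 red and 6 blue points are filled.

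Of 15 genes for other VEGF and adrenomedullin ligands and receptors, also chosen with earlier results of these data known, 8 were listed and tested. The receptor genes KDR, NRP1, NRP2, CALCRL, RAMP2 and RAMP3 and the ligand gene VEGFD were not listed. Under Degrader edgeR called 3 of the 8, where 15.3% of all genes were called, 1 higher and 2 lower (median 0.0028). For GDC0068 it called 1, lower (median -0.034), where 3.58% of all genes were called. Between the drugs it called 0 (0.266% of all genes), as did DESeq2, with 0 at an unadjusted p under 0.05. With the replicate block edgeR called 4 of the 8 under Degrader (30.7% of all genes), 1 higher and 3 lower. For GDC0068 the block gave 2 (17.8% of all genes), 1 in each direction, and between the drugs it gave 0 (10.4%). VEGFB, a ligand with a weaker effect on vessels than VEGFA, rose under Degrader by 0.34 (adjusted p = 0.0262, edgeR), from 17.4 and 17.2 CPM to 22.9 and 20.9 CPM. ADM2, the gene of a peptide related to adrenomedullin, fell by 0.55 under Degrader (adjusted p = 0.00130, edgeR) and by 0.46 under GDC0068 (adjusted p = 0.0140, edgeR). FLT4, the receptor for VEGF-C and VEGF-D, fell by 0.25 under Degrader (adjusted p = 0.0220, edgeR). The calls of VEGFB and FLT4 under Degrader were lost without any 1 of the DMSO or Degrader libraries (adjusted p up to 0.161 and 0.145, edgeR), and that of ADM2 under GDC0068 without any 1 of the DMSO or GDC0068 libraries (up to 0.0980).

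The genes whose pattern over the 6 libraries lay nearest to VEGFA, among the 13897 that averaged 10 CPM or more, were CTPS1, RAB26 and MTHFD1L. Nearness was the Euclidean distance of centred log2 CPM, which was 0.0817, 0.123 and 0.140, where the median over all genes compared was 0.809. CTPS1, a synthase of the nucleotide CTP, read 49.8 and 48.5 CPM in DMSO. It read 35.7 and 33.7 CPM under GDC0068 and 30.4 and 28.7 CPM under Degrader. Its arms step in the same order as those of VEGFA, which follows from its choice as the nearest gene and is no separate result. Of the other 9 genes, EGLN3 (0.595) and P4HA1 (0.597) came nearest and KDM3A (1.12) lay farthest. With 6 libraries these distances are a description only.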

How the data were processed

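PRO-seq was measured in 6 T47D libraries, 2 in each of 3 arms. The authors deposited raw counts per gene interval as 1 table; that they are unnormalised follows from the values. Per the submitters' processing notes, cutadapt 1.14, Bowtie 1.2.2, SAMtools 1.3.1, HISAT2 2.2.1 and limma were used and the builds hg38 and dm3 appear, with no role given; the counter, the counted part of a gene, duplicate removal, strand and any spike-in scaling are not given in the sources used here. Without spike-in scaling, changes are relative to the bulk of genes. Starts are written counting from 1.

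Columns were matched to samples by the labels' descriptions. edgeR 4.0.16 in R 4.3.3 was run on the counts as deposited: filterByExpr (minimum count 10, minimum total 15) left 19902 of 20333 genes, libraries were scaled by TMM, and all 6 entered 1 quasi-likelihood fit with a term per arm and 3 residual degrees of freedom. A call is an adjusted p (Benjamini-Hochberg, all genes tested) under 0.05; p-values marked edgeR are of this fit where no other setting stands beside them. The SE is the size of the log2 fold change over the square root of F. DESeq2 1.42.0 was an alternative. Only the setting with the replicate block uses the pairing of the libraries by experiment, with 2 residual degrees of freedom. The main fit, DESeq2 and the fits without a library do not use it.

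Libraries with the same replicate number, which the series ties to 2 independent experiments, shifted together around the mean of their arm (over 19902 genes, r = 0.177 for DMSO with GDC0068, 0.220 for DMSO with Degrader and 0.204 for GDC0068 with Degrader), so the number pairs the samples; blocked values are given where they change a call. The 2 libraries of an arm differed by more than counting noise (chi-square per degree of freedom 4.98 to 6.91).

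The 10 genes and the further lists were chosen with earlier results of these data known. All 10 are named, with up to 3 called genes per direction and drug from each further list, up to 2 between the drugs, and the 3 genes nearest to VEGFA. Outside this rule, and chosen after their values were seen, are the other HIF targets called under Degrader, the uncalled VHL, ARNT, CA12, DDIT4 and BNIP3L, the overlapping transcripts, and the markers named.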

Additional observations from a re-analysis of the deposited data

How the results depend on the processing

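Of 450 comparisons of a gene's log2 fold change with an alternative setting, 416 kept the direction and the side of the threshold, 7 gained and 8 lost a call, and 19 changed sign, all 19 from values that were not called. VEGFA kept its calls against DMSO in all of them. The 7 gains came with the replicate block.

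With the replicate block, edgeR called 6114 of all genes, 5 of the 10 genes, 9 HIF regulators and 26 HIF targets under Degrader. For GDC0068 it called 3540, 4, 6 and 16, and 2 VEGF and adrenomedullin genes. Between the drugs it called 2065, 2, 3 and 4. The regulators called were 5 with robust estimation or only the 4 libraries compared (Degrader), and 1 by DESeq2 or with only the 4 libraries (GDC0068). Between the drugs, all genes called were 141 by DESeq2, 116 with robust estimation and 23 with only the 4 libraries. With upper-quartile scaling HIF1A was 0.0012 (Degrader), 0.0064 (GDC0068) and -0.0053 (between the drugs), and P4HA1 was -9.3e-04 between the drugs.

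Leaving out 1 library gave these ranges. Under Degrader: all genes 931 to 3217, the 10 genes 1 to 3, regulators 2 to 5, targets 6 to 16, VEGF and adrenomedullin genes 1 to 3. Under GDC0068: all genes 37 to 546, regulators 0 to 2, targets 1 to 6, VEGF and adrenomedullin genes 0 to 1. Between the drugs: all genes 5 to 63. Of log2 fold changes that turned, under Degrader HIF1A ran from -0.031 to 0.018, BNIP3 from -0.15 to 0.088 and NDRG1 from -0.13 to 0.038. Under GDC0068 HIF1A ran from -0.065 to 0.044, EGLN3 from -0.100 to 0.011 and KDM3A from -0.012 to 0.21. Between the drugs HIF1A ran from -0.046 to 0.063, EPAS1 from -0.081 to 0.046 and P4HA1 from -0.055 to 0.086. A fit without a library has fewer degrees of freedom and a lone sample in 1 arm, assumed to vary like the others; other causes were not tested.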
